A study of Mus musculus with 2 samples.

Results

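This group of 10 activity-induced immediate early genes was followed across 2 Visium sections of mouse brain: Arc, Fos, Fosb, Junb, Egr1, Egr2, Egr4, Nr4a1, Nr4a3 and Npas4. They were taken by symbol from the 32285 genes listed in the files, and each of the 10 matched 1 row. In a Visium experiment the tissue lies on a slide printed with barcoded capture spots, and the RNA counted in a spot can come from several cells or parts of cells. Both sections were 10 µm thick, fresh frozen, from wildtype C57BL/6 brain (a common inbred mouse strain) and labelled ZT12, with no treatment given. They are replicates 1 and 2 of 1 group, called sections 1 and 2 here, and the labels do not say whether they came from separate animals. The p-values therefore measure only how far the differences between regions vary from 1 of these sections to the other, which may be technical. The series set out to describe regional differences in the brain, and the comparisons here are between regions, between spots and between the 2 sections.

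Immediate early genes are switched on by synaptic activity without new protein synthesis. Calcium entry through NMDA receptors and calcium channels activates kinases that act on factors already bound to their promoters, such as CREB at CRE sites and serum response factor at CArG boxes. Most of the products are transcription factors that set a second wave of genes, while Arc acts at the synapse itself. In brain these transcripts are widely used as marks of recently active neurons.

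Of the 10 genes, 8 matched the RefSeq promoter table (GRCm38.p6), and Arc and Egr1 did not. The stretches upstream of the start site are shown because they carry the CRE core, TGACG or its reverse complement CGTCA, which all 8 held within 250 bases before a start. Capitals mark the CRE core, the CArG box in Egr2 and TATAAA in Fos. The Fos stretch is chr12:85473751-85473872 on the + strand, that of Junb is chr8:84978840-84978864 on the - strand, and that of Egr4 is chr6:85513684-85513776 on the - strand. These 3 lie outside the gene. The stretches of Fosb (chr7:19310091-19310115, -), Egr2 (chr10:67537793-67537822, +), Nr4a1 (chr15:101266611-101266640, +), Nr4a3 (chr4:48045084-48045113, +) and Npas4 (chr19:4990128-4990157, -) lie upstream of a start but within the annotated span of their own gene, so only a short piece is printed.
Fos: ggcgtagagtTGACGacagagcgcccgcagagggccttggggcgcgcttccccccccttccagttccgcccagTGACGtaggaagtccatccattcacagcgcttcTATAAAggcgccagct
Fosb: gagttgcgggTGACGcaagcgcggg
Junb: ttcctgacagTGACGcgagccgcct
Egr2: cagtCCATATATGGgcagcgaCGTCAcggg
Egr4: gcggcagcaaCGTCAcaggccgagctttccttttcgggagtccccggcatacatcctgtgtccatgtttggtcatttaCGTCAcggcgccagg
Nr4a1: tgCGTCAatggaaccccgcgtgCGTCAcgc
Nr4a3: tcccatgtCGTCAcatTGACGtctcgcatt
Npas4: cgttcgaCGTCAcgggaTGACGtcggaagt

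The CRE core was found in 8 of these 8 genes, against 19.8% of the 27025 genes in the table and 29.9% of the 5609 genes that were also tested below. The uninterrupted CRE, TGACGTCA, which contains TGACG and CGTCA overlapping, was in 0 of the 8 and in 1.77% of all genes. A CArG box was present in Egr2 and in 1.62% of all genes. The EGR site, GCGTGGGCG or its reverse complement CGCCCACGC, was in 0 of the 8 and in 0.622% of all genes. TATAAA or its reverse complement TTTATA was in Fos and in 14.3% of all genes. Both strands were searched for every motif. Egr2 has 5 starts in the table, of which 3 had a CRE core and 4 a CArG box, and the start with the most motifs is the one shown. These matches describe letters in a window and do not show that a factor was bound.

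Counts are UMIs, each 1 captured transcript, and spots with at least 500 UMIs were kept. That left 3030 spots in section 1 and 2531 in section 2, with medians of 18127 and 21555 UMIs per spot. The sections' barcode lists share 1965 barcodes, which are array positions and not shared cells. Markers of neurons, oligodendrocytes, astrocytes and the forebrain were all present. Spots were clustered on 16035 genes drawn at random, leaving out all 10 members. There were 19 clusters. Of these, 12 held 30 or more spots both in section 1 and in section 2; they are called regions and were tested, and the other 7 are described by level. Regions are known by number and leading genes because spot positions were not used. A level below is given in CPM (UMIs of the gene, scaled to a common total of UMIs in the region), and a difference is the log2 ratio of a region to the mean of the other 11. Calls were made where p, adjusted by Benjamini and Hochberg's method over the 7162 tested genes, was under 0.05. In such sums, fewer cells of a type and less RNA per cell cannot be told apart.

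Across the 12 regions, 9 of the 10 genes differed, beside 60.7% of all tested genes. The gene not called was Fos (adjusted p = 0.0618). The largest F value among the 10 was that of Arc (adjusted p = 7.36e-16). The levels were highest as a group in region 7, led by Tbr1, Hs3st2 and Ipcef1, followed by region 11 (Rgs9 and Drd1 among its leading genes) and region 6 (Neurod6, Wipf3, Fibcd1). They were lowest in region 8 (Klk6, Gfap, Cd82), region 16 (Six3, Pvalb, Coch) and region 5 (Nxph4, Kcnab3, Pvalb).

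**Figure D1:**
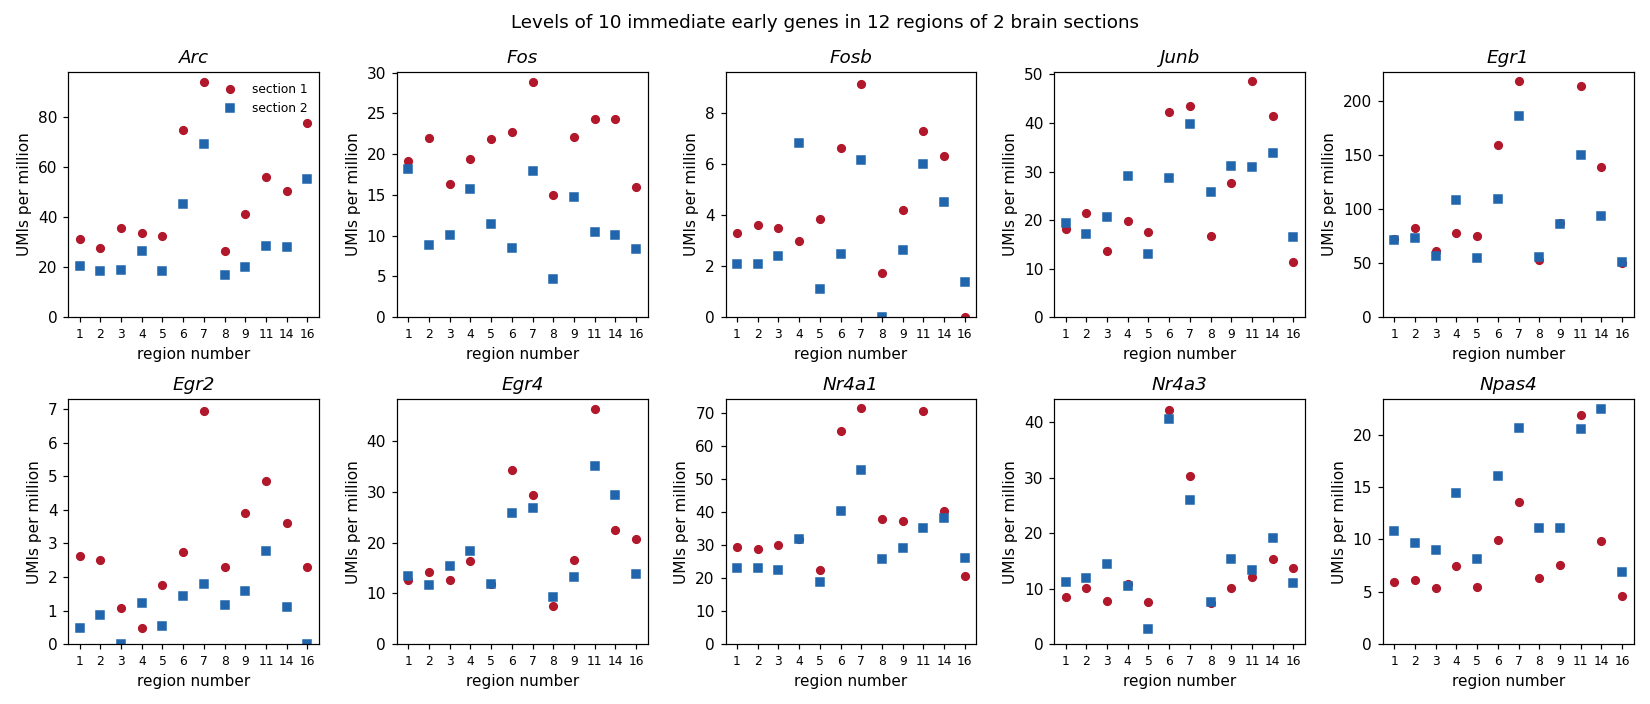
Level of each gene in CPM (vertical axes, from 0) in the 12 tested regions (horizontal axes, region number), with 1 point for each section. Region 7 has the highest Arc and Egr1 of the 12 in both sections, region 6 the highest Nr4a3, and region 16 has high Arc beside low Egr1.

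Region 7 held 124 spots in section 1 and 247 in section 2. There 5 of 6 deep isocortex markers and 5 of 5 glutamatergic forebrain markers were above the mean of all other clusters, tested or not, in each section. Marker counts of other regions and clusters are given in the same way. All 10 genes were higher in region 7, against 14.2% of tested genes called higher, with a median difference of 1.05. With spots thinned to 5000 UMIs, 6 of them were called; Egr4 and Npas4 lost the call, and Fosb and Egr2 no longer passed the filter on low counts. Arc, which encodes a postsynaptic protein that drives removal of AMPA receptors from the synapse, had 94.3 and 69.5 CPM in region 7, against means of 44.3 and 27.0 CPM in the other regions. The difference was 1.3 ± 0.08 (log2, SE, n = 2 sections; adjusted p = 6.84e-15). Each section's own value in region 7 was the highest of its 12 regions.

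Among the zinc finger factors of the EGR family, Egr1 had 219 and 187 CPM in region 7, against 97.5 and 82.8 CPM in the others (1.25 ± 0.09, adjusted p = 1.44e-13). Egr2 rested on 19 and 12 UMIs there (1.24 ± 0.37, adjusted p = 0.0115). Egr4 had 29.2 and 26.8 CPM, against 19.6 and 17.9 CPM (0.70 ± 0.12). In both sections these 3 were higher in region 7 than in the mean of the others, and the call on Egr2 was lost without the section 1 sum of the region (0.86, adjusted p = 0.39).

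The AP-1 factors, Fos and Jun proteins that bind DNA as pairs, were also higher in region 7. Fosb differed by 1.29 ± 0.30, from 25 and 41 UMIs. Junb had 43.5 and 39.8 CPM there, against 25.3 and 24.2 CPM elsewhere (0.80 ± 0.13). Fos had 28.9 and 18.0 CPM, against 20.3 and 11 CPM, which gave the smallest of the 10 differences, 0.60 ± 0.17 (adjusted p = 0.00572). Region 7 was called for Fos, and in no other region was Fos called. The Fos call was lost without the section 2 sum (0.55, adjusted p = 0.15).

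Nr4a1 and Nr4a3 encode orphan nuclear receptors of the NR4A family. Nr4a1 had 71.7 and 52.8 CPM in region 7, against 37.7 and 28.6 CPM in the others (0.95 ± 0.09). Nr4a3 had 30.3 and 26.0 CPM, against 13.3 and 14.4 CPM (1.14 ± 0.15). Npas4, a factor induced selectively by neuronal calcium entry, had 13.5 and 20.6 CPM, against 8.22 and 12.8 CPM (0.79 ± 0.14). All 3 were higher in region 7 in each section. Of the 10 genes, Npas4 alone had its higher level in region 7 in section 2.

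Markers of the tissue moved with these levels in regions 7 and 6, but not in every region. The summed level of the 5 glutamatergic forebrain markers was 1459 and 1575 CPM in region 7 and 1352 and 1469 CPM in region 6, while the other 10 regions lay between 299.6 and 773 CPM in section 1 and between 340.3 and 866 CPM in section 2. In region 11 it was 443 and 340.3 CPM. The summed level of 5 general neuronal markers was 5126 and 4552 CPM in region 7, the highest of the 12 in both sections. By this sum regions 2 (4409 and 4208 CPM) and 5 (4360 and 3963 CPM) lay above regions 6 (4039 and 3812 CPM) and 11 (3407 and 3415 CPM). By the levels of the 10 genes as a group, regions 6 and 11 lay above regions 2 and 5. The part of these markers in the differences was not tested.

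**Figure D2:**
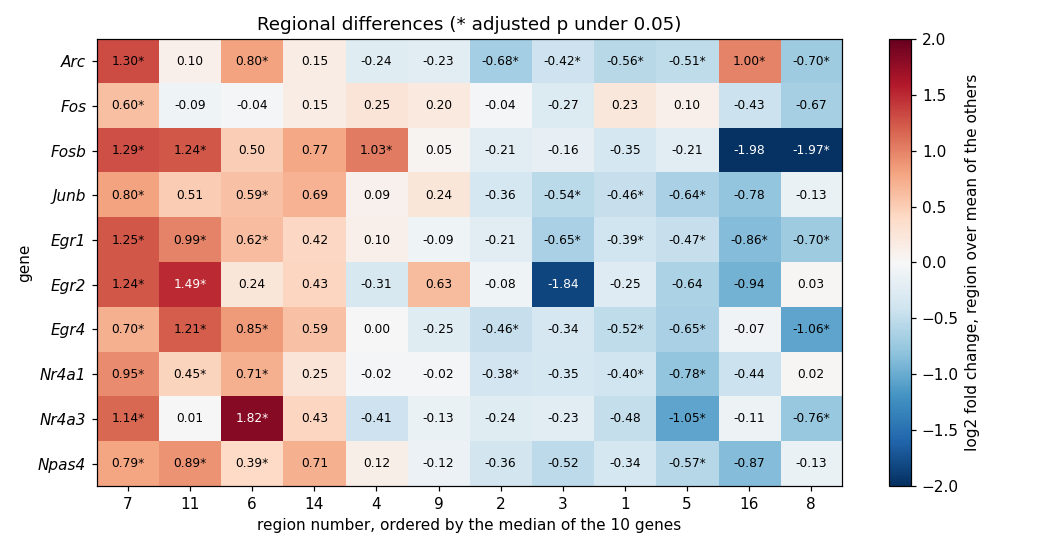
Log2 fold change of each gene (rows) in each of the 12 regions (columns, ordered by the median of the 10 genes) over the mean of the other regions, with an asterisk where the adjusted p is under 0.05. Region 7 is called for all 10 genes, and regions 11 and 6 for 6 and 7 of them. The colour scale ends at 2 in either direction.

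Region 6 stood out by Nr4a3. In this region 7 of 7 hippocampal CA field markers were higher, and so were 4 of 5 dentate gyrus and 3 of 6 deep isocortex markers. Nr4a3 had 42.2 and 40.6 CPM in region 6, against 12.2 and 13.0 CPM in the others, a difference of 1.82 ± 0.13 (adjusted p = 4.26e-14) that was the largest rise of any of the 10 genes in any region. It was followed by Egr4 (0.85 ± 0.11), Arc (0.80 ± 0.08), Nr4a1 (0.71 ± 0.09), Egr1 (0.62 ± 0.09), Junb (0.59 ± 0.13) and Npas4 (0.39 ± 0.14). In all, 7 of the 10 were higher and 0 lower, against 15% and 13.4% of tested genes. Fos had 22.7 and 8.45 CPM in region 6, against 20.9 and 11.8 CPM in the others, and was not called (-0.04 ± 0.17, adjusted p = 0.912). Fosb and Egr2 were not called either, at 36 and 12 UMIs and at 15 and 7 UMIs. The sections lay on opposite sides of the others' mean for Fos.

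Region 11 carried 7 of 7 striatal markers and had 43 spots in section 1 and 194 in section 2. Its section 1 sum also held other tissue: the 5 choroid plexus markers summed to 12060 CPM there, against 1314 to 2202 CPM in the other tested regions of that section, and to 2466 CPM in section 2. The 4 ependyma markers summed to 182.5 and 27.9 CPM. The part of that tissue in the values of region 11 was not tested. Here 6 of the 10 genes were higher and 0 lower, against 9.1% and 6.83% of tested genes. Egr1 had 214 and 150 CPM in region 11, against 98.0 and 86.1 CPM in the others (0.99 ± 0.12, adjusted p = 2.87e-08). Egr4 had 46.2 and 35.1 CPM, against 18.0 and 17.2 CPM (1.21 ± 0.15, adjusted p = 9.24e-08), and this was its highest region. Npas4 had 21.9 and 20.6 CPM, against 7.46 and 12.8 CPM (0.89 ± 0.17). Both sections were above the others' mean for all 3.

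Arc did not follow Egr1 in region 11. Arc had 56.0 and 28.6 CPM there, against 47.8 and 30.7 CPM in the others (0.10 ± 0.14, adjusted p = 0.761), with the sections on opposite sides. Nr4a3 (0.01 ± 0.22), Fos (-0.09 ± 0.26) and Junb (0.51 ± 0.18, adjusted p = 0.053) were not called. Fosb (3 and 26 UMIs) and Egr2 (2 and 12 UMIs) were called from few UMIs. Without the section 2 sum of the region, which holds most of its UMIs, 2 of the 6 calls were left, and without the section 1 sum 4 were. The difference between Arc and Egr1 in this region was not tested.

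The pattern of Arc and Egr1 was opposite in region 16, which had 37 spots in each section and in which 5 of 6 GABAergic markers were higher. Arc had 77.8 and 55.3 CPM in region 16, against 45.8 and 28.3 CPM in the others (1.0 ± 0.18, adjusted p = 0.00021), from 34 and 40 UMIs. Egr1 had 50.3 and 51.2 CPM, against 113 and 95.1 CPM (-0.86 ± 0.23, adjusted p = 0.0132). So 1 gene was higher and 1 lower, against 4.37% and 1.83% of tested genes. In each section Arc was above and Egr1 below the mean of the other regions. The Arc call was lost without the section 2 sum (0.87, adjusted p = 0.082), and the Egr1 call without either sum.

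In region 8, where 5 of 5 oligodendrocyte markers were higher, 5 of the 10 genes were lower and 0 higher, against 16% and 16.5% of tested genes. Egr4 had 7.49 and 9.36 CPM in region 8, against 21.5 and 19.5 CPM in the others (-1.06 ± 0.24, adjusted p = 0.000576). Egr1 had 53.0 and 55.6 CPM, against 113 and 94.7 CPM (-0.70 ± 0.15). Arc had 26.5 and 17.0 CPM, against 50.5 and 31.8 CPM (-0.70 ± 0.16). These 3 were below the others' mean in both sections. Nr4a3 was lower by its call (-0.76 ± 0.30), but its direction turned with spots thinned to 5000 UMIs (0.13). Fosb had 3 and 0 UMIs. Nr4a1 had 38.0 and 25.7 CPM, against 40.7 and 31 CPM, and was not called (0.02 ± 0.15). Without TMM factors, which correct for composition, the median of all tested genes in region 8 was -0.17. Changes there are relative to that shift, and Nr4a1 and Egr2 then turned below 0, at -0.14 and -0.12. The summed level of 5 oligodendrocyte markers was 42900 and 47380 CPM in region 8, against 5555 to 28150 CPM and 6520 to 29840 CPM in the other regions, and that of the neuronal markers was the lowest of the 12. Their part was not tested. Without the section 1 sum of the region 0 of the 5 calls were left, and without that of section 2 there were 3.

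Region 5, with 365 spots in section 1 and 93 in section 2, had 7 of the 10 genes lower and 0 higher, against 6.98% and 9.56% of tested genes. Nr4a3 had 7.65 and 2.71 CPM there, against 15.3 and 16.5 CPM in the others (-1.05 ± 0.22, adjusted p = 0.000514). Nr4a1 had 22.4 and 19.0 CPM, against 42.1 and 31.6 CPM (-0.78 ± 0.12). The other 5 were Arc, Junb, Egr1, Egr4 and Npas4, between -0.65 and -0.47. Fos was close to the others at 21.9 and 11.4 CPM, against 20.9 and 11.6 CPM (0.10 ± 0.18, adjusted p = 0.776). Leaving out the section 1 sum left 1 of these 7 calls, and leaving out that of section 2 left 4.

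The median change of the 10 genes was nearer 0 in the remaining 6 regions, although region 1 had as many lower calls as region 8. Over all 12 there were 25 calls of a higher and 24 of a lower level. Without the section term in the fit there were 16 and 6. Regions 1, 2 and 3 had 5, 3 and 3 genes lower and 0 higher. Of tested genes 5.91%, 9.05% and 3.48% were called lower there and 7.05%, 12.2% and 5.47% higher. In region 4, led by Pmch, Cartpt and Tac2, Fosb was higher (1.03 ± 0.30, adjusted p = 0.0146), with 2.98 and 6.81 CPM against 4.50 and 2.80 CPM in the others, so that section 2 alone was above the mean. It was the only call of the 10 genes there, against 9.35% of tested genes higher and 7.75% lower. In region 9, 0 of the 10 were called, against 14.2% of tested genes higher and 11.3% lower, and in region 14 also 0, against 5.6% and 3.76%. Neighbouring regions in a gene's order of levels mostly overlapped, as for Fos, whose values in region 7 overlapped those of region 1.

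Untested clusters added to this picture. Cluster 12 (Lamp5, Vip and Egr1 led it, and 6 of 6 superficial isocortex markers were higher) had 180 spots in section 1 and 16 in section 2. Its Egr1 level was 425 and 332 CPM and its Arc level 177 and 72.0 CPM, above the 12 tested regions in each section. In section 2, however, its Arc level rests on 33 UMIs and was close to that of region 7 (69.5 CPM, from 464 UMIs). Arc there is not read as above region 7. Cluster 13 (Vxn, Fezf2, Trbc2) had 177 spots in section 1 and 0 in section 2, with Egr1 at 415 CPM and Arc at 180 CPM. The dentate cluster 18 (Dsp, C1ql2, Lct), with 45 and 22 spots, had Egr1 at 65.9 and 55.5 CPM, against means of 108 and 91.5 CPM over the regions, and Arc at 41.1 and 22.5 CPM, against 48.5 and 30.6 CPM. Junb in cluster 18 was above that mean in both sections (30.02 and 34.5 CPM, against 26.8 and 25.5 CPM), as was Fosb from 10 and 4 UMIs, and Nr4a3 lay above it in section 1 and below it in section 2. Cluster 10 (Trh, Cpne7, Crym) had Nr4a3 at 39.9 and 40.3 CPM, close to region 6, but Egr1 at 74.8 and 74.6 CPM.

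Related genes were read in region 7 from 5 lists, whose counts stand beside 14.2% of all tested genes called higher there and 10.9% called lower. Of the EGR and NR4A relatives and their corepressors, 3 of 6 were higher and 0 lower: Nr4a2, the third NR4A receptor, by 1.42 ± 0.19, Egr3 by 0.94 ± 0.09, and Nab2, a corepressor of EGR factors, by 0.42 ± 0.12. The median of the list was 0.22, against 0.0051 for all tested genes. Of the AP-1 partners, 1 of 4 tested was higher, Fosl2 (0.81 ± 0.15), and 0 lower, with a median of 0.14. Of the other rapid response genes, 13 of 31 were higher and 3 lower (median 0.21). The higher ones included Ier5 (1.54 ± 0.08), Ccn1 (1.28 ± 0.33), Klf10 (0.99 ± 0.15), Dusp5 (0.93 ± 0.15), Trib1 (0.86 ± 0.15) and Ier2 (0.84 ± 0.14). Rises in this list were not particular to region 7. In region 9, where 0 of the 10 members were called, 10 of 31 were higher and 0 lower, against 14.2% and 11.3% of tested genes. Of the EGR and NR4A list 0 of 6 were higher in region 9 and 1 lower.

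Of the synaptic and secreted activity genes, 9 of 17 were higher and 2 lower in region 7, against 14.2% and 10.9% of all tested genes (median 0.49). They included the neuronal pentraxins Nptx1 (1.19 ± 0.06) and Nptx2 (0.93 ± 0.13), Kcnj4 (1.03 ± 0.09), Lingo1 (0.82 ± 0.07), the postsynaptic scaffold gene Homer1 (0.76 ± 0.10) and Pcsk1 (0.72 ± 0.17). Of the upstream kinases and transcription factors, 13 of 28 were higher and 2 lower, against the same 14.2% and 10.9% (median 0.24). Mef2c, an activity-regulated factor, was higher by 1.52 ± 0.06, Mrtfb by 0.61 ± 0.07, the NMDA receptor subunit gene Grin2a by 0.59 ± 0.08, Camk2a by 0.57 ± 0.09 and Mef2d by 0.45 ± 0.07, while Rps6ka1 was lower (-0.57 ± 0.17).

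Over single spots, the 10 genes were sparse. In section 1 Egr1 had at least 1 UMI in 69.8% of spots and in section 2 in 77.6%, Arc in 50.4% and 42.4%, and Egr2 in 7.99% and 3.0%. With every spot thinned to 5000 UMIs the shares were 40.7% and 35.0% for Egr1 and 22.0% and 12.1% for Arc. Thinned shares of spots with Egr1 were 64.5% and 55.5% in region 7, against 21.1% and 24.0% in region 8. In the choroid plexus cluster 19 (17 and 36 spots, medians of 23660 and 17700 UMIs against 22220 and 26880 in region 7), the thinned Egr1 shares were 35.3% and 36.1%. Its neuronal marker sum, 1834 and 2218 CPM, was close to that of region 8 (1952 and 2223 CPM), so its spots are not free of neuronal RNA. The Egr1 shares of 7 tested regions (1, 2, 3, 5, 8, 9 and 16) lay below those of the choroid plexus cluster in both sections. Region 2 in section 1 (34.5%) and region 9 in section 2 (35.3%) were close to it, and its own shares rest on few spots. At this depth the shares of these regions are not read as above those of that cluster. Whether they are background was not tested.

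A median spot held UMIs of 3 of the 10 genes in each section. Spots with 8 or more were 6.67% of section 1 and 1.42% of section 2. In section 1 they made up 54.2% of cluster 13 and 45% of cluster 12, whose median spots had 35980 and 31090 UMIs, and 6.45% of region 7. The spots of these clusters were also deeper than the section's median. After thinning to 5000 UMIs, the mean number of genes per spot was 3.08 in cluster 13, 2.97 in cluster 12 and 2.02 in region 7, against 1.33 over section 1.

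Co-variation among spots was described as Pearson correlation of residuals from the count expected for a gene and a spot's total, over 45 pairs. Spots of a section share 1 library, depth and neighbouring tissue, so these values have no test, and in sparse counts a weak correlation is no finding. The median over pairs was 0.306 in section 1 (3030 spots) and 0.0642 in section 2 (2531 spots). All 45 pairs were above 0 in section 1 and 40 in section 2. Arc with Egr1 was the highest pair, at 0.709 and 0.269, followed by Egr1 with Nr4a1 at 0.680 and 0.200. When the expected count was taken within a spot's cluster, the medians were 0.0629 and 0.0221, with Arc and Egr1 at 0.241 and 0.0937. With spots thinned to 5000 UMIs the median over all spots was 0.0747 and 0.0167.

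**Figure D3:**
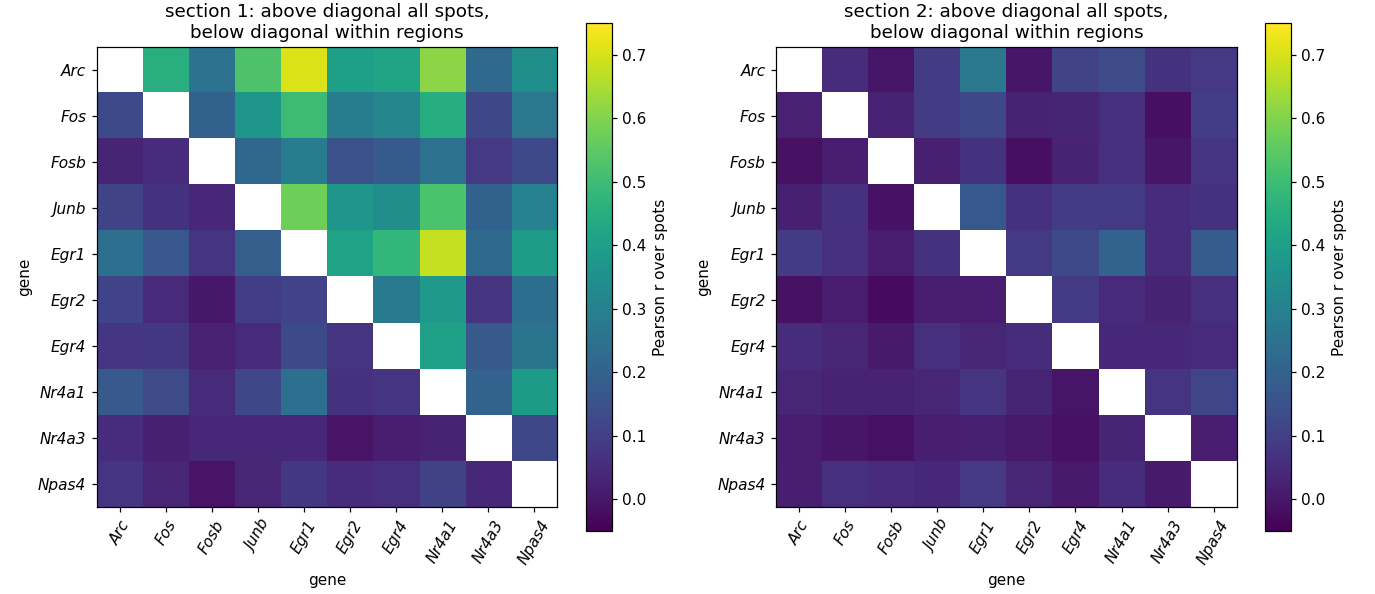
Pearson correlation over spots (colour) between pairs of the 10 genes, section 1 at left and section 2 at right, with all spots above the diagonal and values within clusters below it. Arc, Egr1, Nr4a1 and Junb form the brightest block in section 1, and section 2 is lower, with Arc and Egr1 at 0.269.

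Nr4a3 stood apart in section 1 alone, and only after a correction for counting noise. Corrected values there lay between 0.717 and 0.99 for the 36 pairs without Nr4a3 and between 0.171 and 0.495 for the 9 with it. Without the correction the pairs overlapped, as with Arc and Nr4a3 at 0.225 and Fosb and Npas4 at 0.126. In section 2 the corrected values overlapped as well, and they ranged past 1 and are not interpreted singly. Among the genes most like Nr4a3 over spots were Neurod6 (0.40 and 0.33) and Mmd (0.34 and 0.33). The genes most like the sum of the 10 were Nrgn (0.60 and 0.46), which encodes the postsynaptic calmodulin binder neurogranin, Dkk3 (0.55 and 0.39), Calm2 (0.48 and 0.37) and the vesicular glutamate transporter gene Slc17a7 (0.53 and 0.37). The 99th percentile over 7489 genes was 0.388 and 0.238. With the marker sums, the 10 genes' sum correlated at 0.60 and 0.41 for glutamatergic forebrain neurons, at -0.31 and -0.23 for oligodendrocytes, and at 0.26 and 0.17 with the log of spot UMIs. It correlated at -0.18 and -0.18 with the mitochondrial share.

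Spots were also divided within each cluster into the 25% with the highest and the 25% with the lowest Egr1 level. Clusters with fewer than 30 spots in a section were left out of that section. Clusters 12 and 13 therefore enter in section 1 but not in section 2. Arc had 103 CPM in the high and 53.4 CPM in the low spots of section 1 (753 and 742 spots), a ratio of 1.93, and 35.5 and 25.7 CPM in section 2, a ratio of 1.38. Nr4a1 had ratios of 1.84 and 1.3 and Fos of 1.83 and 1.36, while Nr4a3 had 1.23 and 1.05. In section 1 all 9 other genes reached 1.2-fold, beside 5.53% of 11980 genes. In section 2 there were 6 (Arc, Fos, Junb, Egr2, Nr4a1 and Npas4), beside 4.56% of 11786. These shares are over genes with at least 100 UMIs in the high and low spots together. Egr2 and Fosb fell short of that in section 2, so Egr2 is among the 6 but outside the 11786 genes. The ratio was above 1 for the 9 genes in both sections. In section 2, however, Fosb (53 and 45 UMIs, ratio 1.06) and Nr4a3 were close to 1, and Egr2 rests on 20 and 14 UMIs.

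Levels were also set side by side between the sections. Over whole sections Arc had 4098 UMIs in section 1 and 1711 in section 2, a log2 ratio of section 1 to section 2 of 1.14 (95% exact interval 1.06 to 1.22, counting error only). Fos gave 1.22, Egr2 1.99, Nr4a1 0.87, Fosb 0.69, Egr1 0.62, Junb 0.46 and Egr4 0.32, while Npas4 gave -0.27. Nr4a3 gave -0.03, with an interval of -0.16 to 0.09 that includes 0. Of 13256 genes with at least 200 UMIs over both sections, 2.79% were at least 1.5-fold higher in section 1 over whole sections. At least 1.5-fold lower were 3.65%. With 1 library a section there is no test. The sections hold different tissue, with clusters 12 and 13 making up 180 and 177 spots of section 1 but 16 and 0 of section 2.

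Within the 12 regions the mean ratios were nearer 0 for 8 of the 10 genes and further below 0 for Npas4 and Nr4a3. The ratios within regions have a pseudocount of 1 CPM, which draws those of low levels towards 0, and the whole-section ratios have none. For Egr2 (5.72 and 1.44 CPM over whole sections) and Fosb (6.55 and 4.06 CPM) the 2 measures are therefore not alike. Arc was higher in section 1 in 12 of 12 regions, with a mean log2 ratio of 0.63 ± 0.22 (SD over regions), and Fos in 12 of 12 (0.82 ± 0.43). Npas4 was lower in section 1 in 12 of 12 (-0.65 ± 0.27). Of the 13256 genes with at least 200 UMIs over both sections, 0.634% were higher in every region and at least 1.5-fold on average. By the same rule 1.75% were lower. Egr2 was higher in 11 of 12 (0.86 ± 0.58), Nr4a1 in 10 of 12 (0.29 ± 0.33) and Fosb in 10 of 12 (0.37 ± 0.81). The directions of Egr2 and Fosb rest on few UMIs in several regions. Egr2 had 4 and 0 UMIs in region 3 and 1 and 0 in region 16. Fosb had 3 and 0 in region 8 and 0 and 1 in region 16. Egr1 (0.13 ± 0.31), Egr4 (0.03 ± 0.30), Junb (-0.06 ± 0.45) and Nr4a3 (-0.09 ± 0.50) were near 0. Files of the sections name different versions of the counting software, so version and section cannot be told apart.

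**Figure D4:**
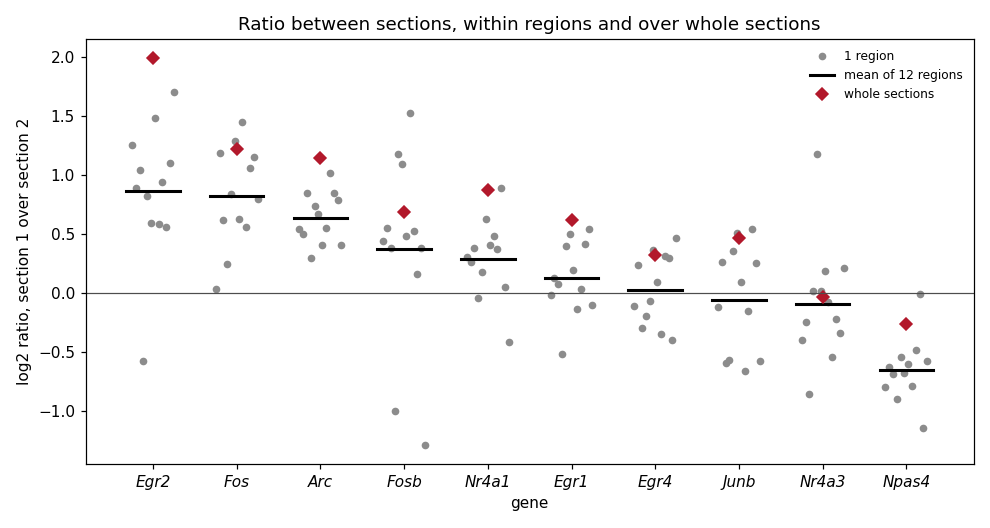
Log2 ratio of section 1 to section 2 for each gene, within each of the 12 regions (grey points), as the mean of the 12 (black bar) and over whole sections (red diamond). Arc and Fos are above 0 in all 12 regions and Npas4 below 0 in all 12, and the whole-section ratio is above the mean of the regions for each gene. Ratios within regions have a pseudocount of 1 CPM and whole-section ratios have none.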

How the data were processed

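Gene expression was measured with 10x Visium in 2 sections. Counts of UMIs for every gene in every spot were deposited without normalization, and they came from Space Ranger. For these deposited counts the file headers name version 1.2.2 for section 1 and 2.0.1 for section 2, and the submitters' processing notes name 2.0.1 and mm10 for both. The annotation release they used was not given in the sources used here. The 10 genes and all gene lists were chosen with earlier results of these data known. Totals were 58662871 and 55851559 UMIs, and counts limit precision most for Egr2 and Fosb.

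Of 32285 genes, 16035 chosen at random outside all lists served to cluster the spots, and the other 16019 with 231 listed genes were available for testing. Clustering used 2000 genes by Pearson residual variance, 30 principal components, values centred per section and a graph of 15 neighbours, divided by Leiden clustering with a resolution of 1 (Python 3.11.15, igraph 0.11.9, leidenalg 0.10.2). Counts were summed per section and region, and the 24 sums entered a model with a section term in edgeR 4.0.16, under R 4.3.3. TMM factors were used, and filterByExpr dropped 9088 genes. Quasi-likelihood F tests had 11 residual degrees of freedom, and the SE is the change over the square root of F. Regions come from the same spots as the tests, so related expression of the tested genes can carry into their definition. The steps were tested on simulated data. All 10 genes passed the filter on low counts. The section term pairs the sums of a section, since they come from the same section, so the pairing comes from the labels. Named regions are the 3 with the highest and the 3 with the lowest median change of the 10 genes. Named list genes are those called in region 7 with the largest changes, up to 6 a list, and like genes are those with the highest correlation in the lower of the sections, among genes with at least 1000 UMIs in each. DESeq2 1.42.0 was among the alternatives. No doublet caller was run, because spots can hold several cells. Levels used in ratios between sections within regions have a pseudocount of 1 CPM. A few genes that these rules name are not reported here.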

Additional observations from a re-analysis of the deposited data

How the results depend on the processing

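Without the pairing term for the section (no replicate block), higher calls summed over regions were 16, against 25 with it, and lower calls 6, against 24. Higher calls were then 3 in region 11 and 0 in region 16, and lower calls 2 in region 5 and 2 in region 8; the cause was not tested. With spots thinned to 5000 UMIs, which leaves fewer UMIs, there were 16 higher and 9 lower calls, with 6 higher in region 7, and lower calls of 2, 3 and 0 in regions 5, 8 and 16. Nr4a3 in region 8 then reversed to 0.13, and the median correlation within clusters fell to 0.0051, against 0.0425 as the mean of both sections. At resolution 0.5 there were 15 lower calls, and DESeq2 gave 3 in region 8. Leaving out 1 section's sum gave 18 to 22 higher and 4 to 14 lower calls. By region, higher calls were 9 in region 7, 5 to 6 in region 6, 2 to 4 in region 11 and 0 to 1 in region 16. Lower calls were 1 to 4 in region 5, 0 to 3 in region 8 and 0 in region 16. Genes that differ among regions were 8 to 9. The median correlation was 0.0642 to 0.306 over all spots and 0.0221 to 0.0629 within clusters. Taking the mean over regions in place of whole sections gave section ratios of 0.63 for Arc, 0.82 for Fos, 0.37 for Fosb, -0.056 for Junb, 0.13 for Egr1, 0.86 for Egr2, 0.028 for Egr4, 0.29 for Nr4a1 and -0.65 for Npas4. The means over regions have a pseudocount of 1 CPM, and the whole-section ratios have none. For Egr1, UMI totals gave 0.67 and totals without mitochondrial genes 0.68. Each change in the 6 named regions was refitted under the alternatives that kept these regions, so not at resolution 0.5 or with another division of the genes. Refits that gave no value are not counted, as with Fosb and Egr2 in region 7 when spots were thinned. Of the refits of called changes, 262 kept direction and call, 65 lost the call and 1 reversed. Of the refits of changes not called, 195 stayed so and 4 were called. All 10 genes differed among regions with no TMM factors or no filter on low counts, and 7 without the section term.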
